A study of Mus musculus with 6 samples.

Results

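The 10 genes described here encode the proteins that carry lipopolysaccharide (LPS) to its receptor and the adaptors and kinases that pass the signal on: Cd14, Ly96, Lbp, Cd180, Ly86, Myd88, Ticam1, Tirap, Irak2 and Irak3. They were taken by gene symbol, and all 10 were found among the 23183 symbols of the expression tables and passed the filter on low values that left 13116 genes for testing. Lung RNA had been sequenced from mice of C57BL/6 background, 3 libraries after saline and 3 after LPS, each given by intratracheal instillation. The LPS dose, the time after instillation and the age and sex of the mice are not stated in the labels. Whether each library is a different mouse is not stated either, so the spread behind every p-value is that between these libraries and may be technical. The labels disagree on genotype. The titles and the design text call all 6 libraries wild type, while the genotype field gives wild type for the saline libraries, LCN2-/- for LPS 1 and LPS 2, and LCN4-/- for LPS 3. LPS and saline below are therefore the groups of the titles. Should the genotype field hold, the LPS group would also differ from saline in genotype, and the effects of both cannot be told apart.

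LPS-binding protein, the product of Lbp, lifts single LPS molecules out of bacterial membranes and hands them to CD14, which passes them to MD-2, the product of Ly96, held against the outer face of Toll-like receptor 4 (TLR4). The adaptors TIRAP and MyD88 then assemble IRAK kinases at the plasma membrane and switch on NF-kB, whereas TRIF, the product of Ticam1, works from endosomes and switches on interferon genes. CD180 and its partner MD-1, the product of Ly86, resemble the TLR4 and MD-2 pair but have no signalling domain of the TIR type. They restrain TLR4 in myeloid cells and promote the response of B cells to LPS. In lung, alveolar macrophages, recruited monocytes and neutrophils, and epithelium carry parts of this machinery.

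Values are log2(expression value + 1), a scale read from the deposited numbers, and a difference is LPS minus saline on that scale. Whether the values were scaled by gene length is not stated, so levels are not compared between genes. Depth is unknown, because the tables hold no counts. The table of LPS 3 stops short of the last symbols in the alphabet, so Ticam1, Tirap and the Toll-like receptor genes have 2 LPS values and 3 saline values. The same holds for other genes late in the alphabet named below, among them Tmbim4, Srpr, Ticam2, Tank, Tmed7, Unc93b1, Tnfaip3, Tnip1 and Tnip3. Before the log, the values of the genes present in all 6 tables summed to 467480 to 552370 in saline and to 854330 to 885430 in LPS, so the directions given depend on the scaling as deposited. Lung identity markers, among them Sftpc, Scgb1a1 and Ager, were present in all 6 libraries, and 0 of 6 passed the test by limma or had an unadjusted p under 0.05. Lcn2 stood at 13.60 in LPS 1, 13.29 in LPS 2 and 13.82 in LPS 3, and at 8.20, 11.28 and 10.11 in saline. LPS 1 and LPS 2 thus held abundant Lcn2 RNA, though which part of the gene a knockout allele would lack is not stated.

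Of the 10 genes, 8 were higher in LPS (Cd14, Ly96, Lbp, Ly86, Myd88, Tirap, Irak2 and Irak3), 1 was lower (Cd180), and 1 did not pass the test (Ticam1). Passing means an adjusted p under 0.05 by limma with Benjamini-Hochberg adjustment over all 13116 genes, of which 25.7% were called higher and 24.3% lower. The median difference of the 10 genes was 0.93, against 0.02 over all genes tested. Every LPS value lay above every saline value for 9 of the 10 genes, a pattern seen in 32.7% of all genes tested, and every LPS value of Cd180 lay below every saline value, as for 30.7% of genes. The differences ran from 3.59 for Cd14, with 0.419% of tested genes rising more, to -1.42 for Cd180, with 4% of tested genes lower still.

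**Figure D1:**
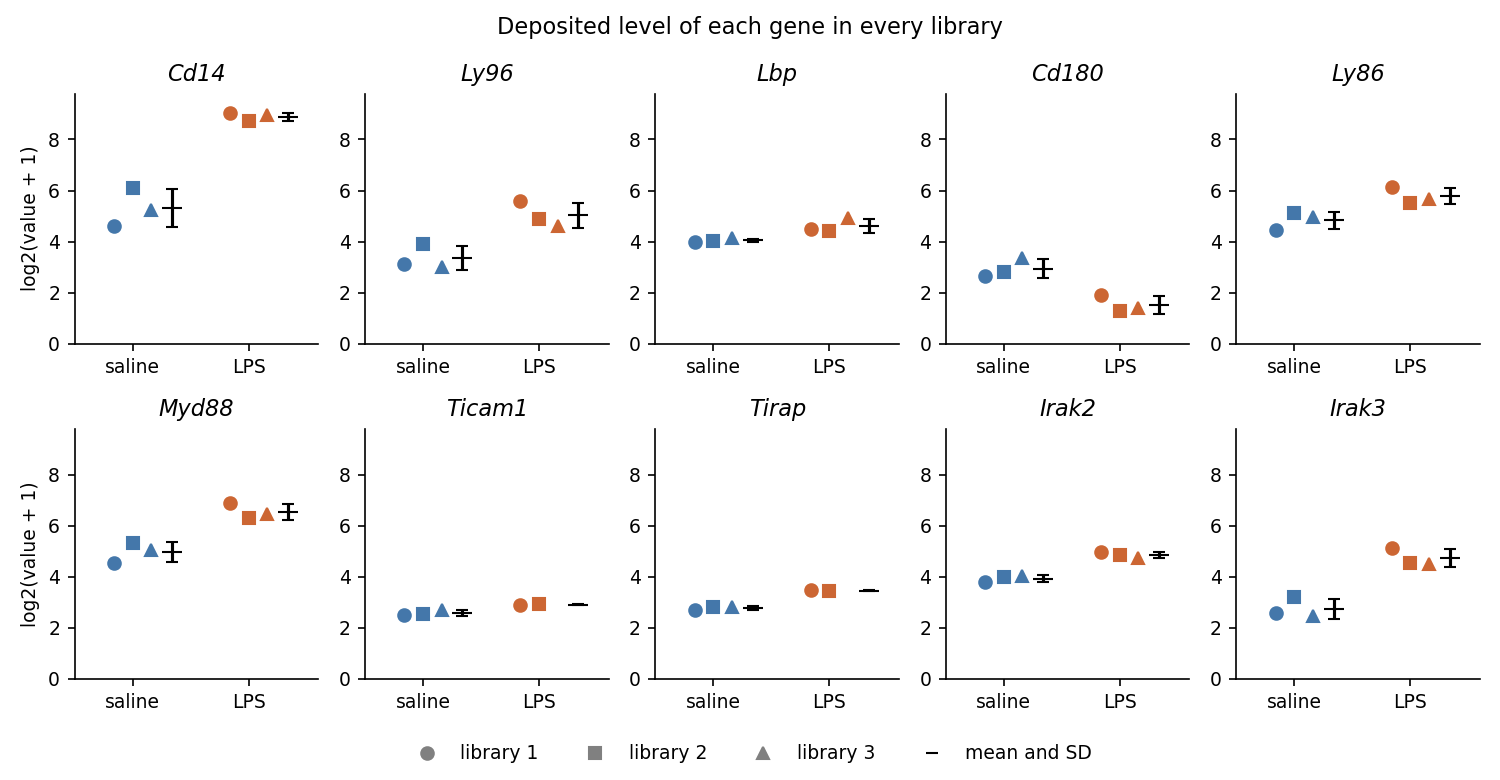
Deposited level, log2(value + 1), of each of the 10 genes in every library, with circles, squares and triangles for libraries 1, 2 and 3 of saline (blue) and LPS (orange), and the mean and SD in black. The groups do not overlap for any of the 10 genes, Cd180 is the gene whose LPS values lie below saline, and Ticam1 and Tirap have no value in LPS 3.

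**Figure D2:**
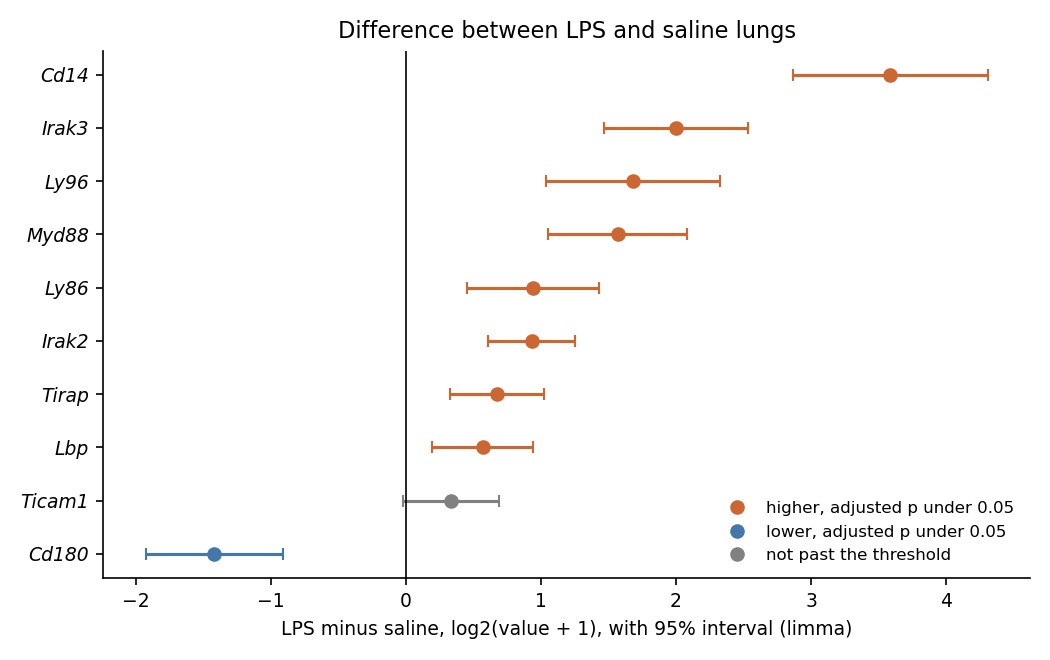
LPS minus saline for each of the 10 genes on the log2(value + 1) scale, with the 95% interval from limma. Cd14 lies farthest to the right at 3.59, Cd180 to the left at -1.42, and the interval of Ticam1 runs from -0.02 to 0.69.

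Among the LPS-binding molecules, Cd14 changed most. This gene for a lipid-anchored co-receptor of myeloid cells (ENSMUSG00000051439.7, chromosome 18, 36725067 to 36726798, minus strand, mm10) stood at 4.61, 6.09 and 5.23 in saline 1 to 3, and at 9.02, 8.72 and 8.94 in LPS 1 to 3. The lowest LPS value lay 2.64 above the highest saline value, which was that of saline 2. The mean was 5.31 ± 0.74 (SD, n = 3) in saline and 8.89 ± 0.15 (SD, n = 3) in LPS, a rise of 3.59 (SE 0.32, 95% interval 2.86 to 4.31, limma adjusted p = 9.74e-05) or 12.0-fold on the value + 1 scale. The saline libraries differed among themselves by more than the LPS libraries did.

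Ly96, which encodes the LPS-binding subunit MD-2 (ENSMUSG00000025779.10, chromosome 1, 16688051 to 16709611, plus strand), read 3.12, 3.89 and 3.02 in saline and 5.57, 4.89 and 4.63 in LPS. The rise was 1.68 (SE 0.29, 95% interval 1.04 to 2.33, limma adjusted p = 0.00154), or 3.21-fold. Saline 2 was again the highest saline library, 0.73 below the lowest LPS library. Tlr4, the receptor that MD-2 binds, did not pass: it read 2.97, 3.51 and 2.90 in saline and 3.93 and 3.21 in LPS 1 and LPS 2, so that the groups overlapped (difference 0.44, SE 0.26, limma adjusted p = 0.189).

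Lbp, the gene for the plasma protein that delivers LPS (ENSMUSG00000016024.9, chromosome 2, 158306493 to 158332852, plus strand), was 3.99, 4.01 and 4.13 in saline and 4.51, 4.41 and 4.92 in LPS. This was the smallest rise among the 8 genes that passed, at 0.57 (SE 0.17, 95% interval 0.20 to 0.94, limma adjusted p = 0.0185), or 1.48-fold. LPS 3 was the highest library. Without LPS 3 the difference was 0.41 (adjusted p = 0.0711), without saline 1 it was 0.54 (adjusted p = 0.0529), and in saline 1 and 3 against LPS 1 and 2 it was 0.40 (adjusted p = 0.0664), so the call ended in each case. Liver cells are the main source of the protein in plasma. Hepatocyte markers were low: the linear values of the 7 markers with a value in every table summed to 2.81 to 5.76 in saline and to 1.03 to 2.60 in LPS, and Ttr and Fgb were listed at 0 in some libraries. Alb read 1.01, 0.30 and 2.01 in saline and 0.08, 0.31 and 0.86 in LPS, and Ahsg, the marker that passed the filter, fell by 0.99 (limma adjusted p = 0.00331) from 1.05, 1.69 and 1.06 to 0.16, 0.22 and 0.44. Fga, which was below the filter, went the other way, with 0.14, 0.12 and 0.17 in saline and 0.59, 0.56 and 0.57 in LPS.

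On the deposited scaling, the genes of the CD180 and MD-1 complex moved in opposite directions. Cd180 (ENSMUSG00000021624.9, chromosome 13, 102693558 to 102739629, plus strand) read 2.65, 2.82 and 3.36 in saline and 1.90, 1.27 and 1.39 in LPS. It fell by 1.42 (SE 0.23, 95% interval -1.93 to -0.91, limma adjusted p = 0.00114), or 2.68-fold. Ly86 (ENSMUSG00000021423.6, chromosome 13, 37345208 to 37419036, plus strand) read 4.46, 5.10 and 4.95 in saline and 6.12, 5.53 and 5.67 in LPS. It rose by 0.94 (SE 0.22, 95% interval 0.45 to 1.43, limma adjusted p = 0.00669), or 1.91-fold. The groups were apart for both genes, by 0.75 for Cd180 and by 0.42 for Ly86.

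Of the 3 genes for TIR-domain adaptors, Myd88 and Tirap rose and Ticam1 did not pass. Myd88, the adaptor shared by most Toll-like receptors and the IL-1 receptor family (ENSMUSG00000032508.8, chromosome 9, 119335934 to 119341411, minus strand), read 4.55, 5.30 and 5.06 in saline and 6.88, 6.29 and 6.45 in LPS. It rose by 1.57 (SE 0.23, 95% interval 1.05 to 2.08, limma adjusted p = 0.00076), or 2.96-fold. Tirap, which recruits MyD88 to TLR4 at the plasma membrane (ENSMUSG00000032041.15, chromosome 9, 35184551 to 35200291, minus strand), read 2.68, 2.83 and 2.82 in saline and 3.47 and 3.43 in LPS 1 and LPS 2. Its rise was 0.67 (SE 0.15, 95% interval 0.32 to 1.02, limma adjusted p = 0.00725), or 1.59-fold, and the LPS values lay 0.60 above the saline values.

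Ticam1, the gene for the interferon-inducing adaptor TRIF (ENSMUSG00000047123.8, chromosome 17, 56269319 to 56276786, minus strand), read 2.50, 2.55 and 2.69 in saline and 2.89 and 2.93 in LPS 1 and LPS 2. The LPS values lay above the saline values by 0.20, yet the difference of 0.33 (SE 0.16, limma adjusted p = 0.106) did not pass. Its 95% interval of -0.02 to 0.69 spans 0.984-fold to 1.61-fold and overlaps that of Tirap.

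The kinase-family genes both rose. Irak2, a member of the IRAK complex that sustains NF-kB signalling (ENSMUSG00000060477.14, chromosome 6, 113638467 to 113695026, plus strand), had the smallest standard error of the 10 genes: 3.79, 3.98 and 4.01 in saline against 4.98, 4.86 and 4.74 in LPS. It rose by 0.93 (SE 0.14, 95% interval 0.61 to 1.25, limma adjusted p = 0.000979), or 1.91-fold. Irak3, which encodes IRAK-M, the family member known for holding back the response of myeloid cells to repeated LPS (ENSMUSG00000020227.10, chromosome 10, 120141648 to 120202130, minus strand), read 2.56, 3.20 and 2.44 in saline and 5.13, 4.56 and 4.52 in LPS. Its rise was 2.0 (SE 0.24, 95% interval 1.47 to 2.53, limma adjusted p = 0.000297), or 4.0-fold, the largest after Cd14 among the 10 genes.

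Some of these genes share sequence with neighbours in the GENCODE annotation, and whether strand was used in counting is not stated in the labels. Irak3 and Tmbim4 overlap by 541 bases on opposite strands, and Tmbim4 also rose, by 1.2 (SE 0.23, limma adjusted p = 0.00324). Myd88 and Acaa1a overlap by 1736 bases on opposite strands, and Acaa1a rose by 0.55 (SE 0.17, limma adjusted p = 0.0224), less than Myd88. Slc22a14 overlaps Myd88 on the same strand over 5478 bases, its whole span, and was below the filter, with 0.28, 0.25 and 0.26 in saline and 0.07, 0.11 and 0.07 in LPS. Cd180 and Mast4 overlap by 7144 bases, with Mast4 at a difference of -0.07 (SE 0.21, limma adjusted p = 0.794). Tirap and Srpr overlap by 117 bases, with Srpr at 0.09 (SE 0.17, limma adjusted p = 0.699). How far reads were shared between these pairs was not tested.

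Promoter windows of RefSeq (GRCm38.p6, 250 bases before to 50 after a start) were at hand for 7 of the 10 genes, Cd180, Ly86, Myd88, Ticam1, Tirap, Irak2 and Irak3, in 10 windows. They were searched on both strands for 5 motifs. The letters GAAANNGAA, found in interferon response elements, occurred in 3 of the 10 windows, those of Myd88, Irak3 and Ly86, against 8.56% of all 32851 windows. The NF-kB consensus and the AP-1 letters TGANTCA were found in 0 of the 10 windows, against 8.46% and 7.81% of all windows. The PU.1 core GAGGAA was found in 2 (28.3% of all), in Irak3 and Ticam1, and the C/EBP letters TTGCNNAA in 1 (10.8% of all), in Irak3. A match is a description of letters and not evidence of binding. The stretches with the interferon-type letters are printed because all 3 genes rose on the deposited scaling. Tirap and Irak2 also rose, and their windows held no such match. Whether the letters go with a rise was not tested. Each printed stretch ends at the base before the RefSeq start, except that of Ly86, which runs 9 bases past it. By the GENCODE coordinates given above, only the stretch of Irak3 lies outside its gene. Those of Myd88 and Ly86 lie within the span of their genes, so they are not sequence before the whole gene. Capitals mark the match, on the reverse strand in Irak3.
Myd88, chr9:119340019-119340123, minus strand: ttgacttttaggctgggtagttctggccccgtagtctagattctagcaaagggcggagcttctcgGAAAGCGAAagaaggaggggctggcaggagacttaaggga
Irak3, chr10:120202131-120202235, minus strand: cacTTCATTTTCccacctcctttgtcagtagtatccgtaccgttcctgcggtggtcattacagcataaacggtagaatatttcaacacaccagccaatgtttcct
Ly86, chr13:37345325-37345353, plus strand: gagactagtattcgagaagtGAAACTGAA

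The library with the highest value was often the same from gene to gene. Saline 2 held the highest saline value for 6 of the 10 genes (Cd14, Ly96, Ly86, Myd88, Tirap and Irak3), and saline 3 for the other 4. Among the 8 genes with a value in all LPS libraries, LPS 1 was highest for 7, among them Cd180, which fell, and LPS 3 for Lbp. Saline 2 and LPS 1 also stood highest for genes that the pathway switches on. The mean of the MyD88-arm readouts listed further on was 1.53, 3.31 and 2.37 in saline 1, 2 and 3 and 7.26, 6.31 and 6.32 in LPS 1, 2 and 3. Neutrophil markers, summed on the linear scale, came to 652, 1957 and 698 in saline 1, 2 and 3 and to 25310, 9704 and 18030 in LPS 1, 2 and 3. The part of these differences in the values of the 10 genes was not tested.

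The balance between partners was followed as the ratio of linear values of 2 genes within each library, which a common scaling factor for a library leaves as it is. Only the change of a ratio is read, since its level depends on gene length. In 7 pairs compared, the LPS and saline ratios did not overlap. How many other gene pairs separate in this way was not counted. Among single genes tested, LPS lay wholly above saline for 32.7% and wholly below for 30.7%. Each pair gave the smallest p that this design allows (two-sided exact permutation test, p = 0.1 and adjusted p = 0.1), so none could pass 0.05. The pairs had been chosen with earlier results of these data known. The largest shift was in the CD180 complex. LPS lay wholly below saline for Cd180 and wholly above it for Ly86, so their ratio had to separate and adds no independent evidence. The ratio of Cd180 to Ly86 was 0.253, 0.181 and 0.311 in saline and 0.0400, 0.0314 and 0.0324 in LPS, a 7.04-fold fall of the mean log2 ratio. On the deposited scaling both genes moved, in opposite directions, but the call of Ly86 ended with quantile normalization (0.60, adjusted p = 0.0512) and with equal sums (0.15, adjusted p = 0.511).

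The ratio of Tlr4 to Cd180 was 1.29, 1.71 and 0.701 in saline and 5.18 and 5.86 in LPS 1 and LPS 2, a 4.75-fold rise. That of Ly96 to Ly86, the small subunits of the respective receptors, went from 0.368, 0.415 and 0.239 to 0.680, 0.635 and 0.475, a 1.78-fold rise and the smallest of the 7 shifts. Cd14 rose beyond Ly96: their ratio was 3.03, 4.83 and 5.13 in saline and 11.1, 14.7 and 20.7 in LPS, or 3.56-fold higher. The ratio of Irak2 to Irak3 fell 2.31-fold, from 2.62, 1.80 and 3.41 in saline to 0.902, 1.24 and 1.17 in LPS, so the inhibitory family member gained on Irak2.

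Among adaptors, Myd88 gained on Ticam1, with ratios of 4.81, 7.94 and 5.92 in saline and 18.1 and 11.6 in LPS 1 and LPS 2, a 2.39-fold rise. It gained 1.84-fold on Tirap, from 4.14, 6.31 and 5.34 to 11.6 and 7.89. Saline 2 lay closest to the LPS libraries for both of these ratios.

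**Figure D3:**
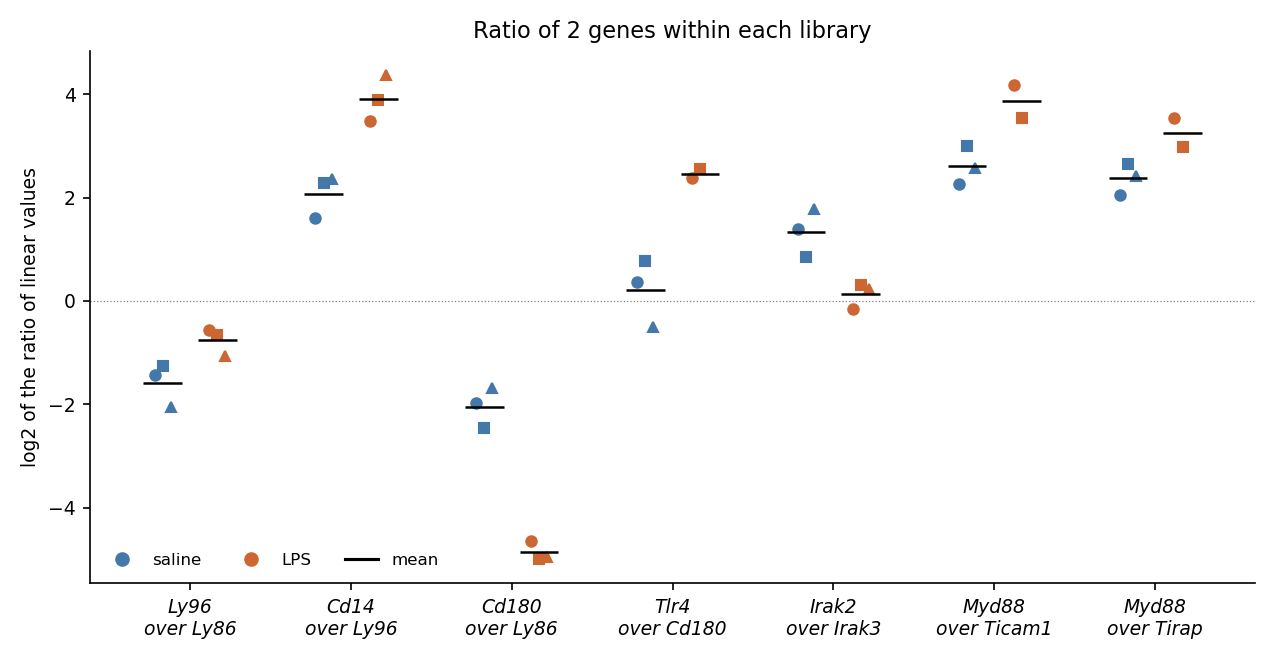
The log2 ratio of the linear values of 2 genes within each library, for 7 pairs, with saline in blue, LPS in orange, circles, squares and triangles for libraries 1, 2 and 3, and bars at the means. The groups do not overlap in any pair, and the widest gap is that of Cd180 over Ly86, with means of -2.04 and -4.86.

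Scaling moved several of these calls. When the libraries were brought to equal sums of linear values, the median of all tested genes moved to -0.68 from 0.02. The split of calls went from 3377 higher against 3188 lower among 13116 genes to 790 against 8576 among 13338. Under that scaling Cd14 (2.79), Ly96 (0.93), Myd88 (0.78) and Irak3 (1.27) were still called higher and Cd180 (-2.04) lower. Irak2 (0.17, adjusted p = 0.336) and Ly86 (0.15, adjusted p = 0.511) no longer passed, and Lbp (-0.20, adjusted p = 0.353), Tirap (-0.05, adjusted p = 0.815) and Ticam1 (-0.37, adjusted p = 0.118) took the opposite sign without passing. Relative to the shifted median, Irak2 stood at 0.85, Ly86 at 0.84, Tirap at 0.64, Lbp at 0.49 and Ticam1 at 0.32. With quantile normalization Lbp (0.41, adjusted p = 0.0769) and Ly86 (0.60, adjusted p = 0.0512) did not pass, while Ticam1 did (0.49, adjusted p = 0.0363).

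**Figure D4:**
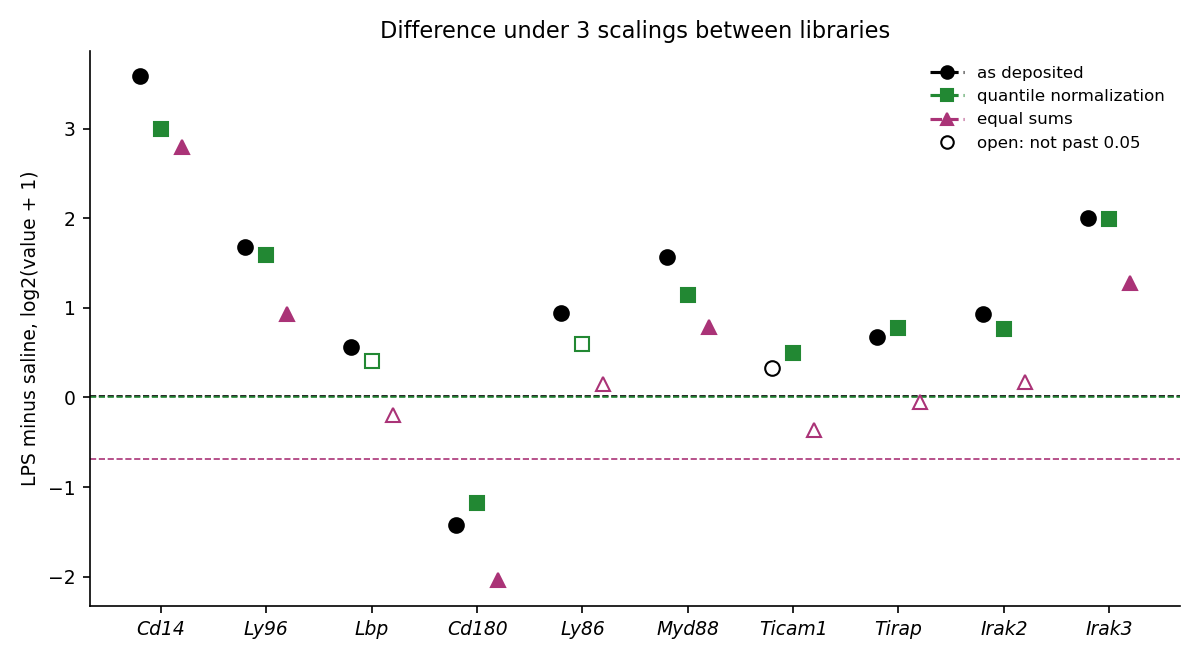
LPS minus saline for each gene on the log2(value + 1) scale under 3 scalings, as deposited (circles), quantile normalization (squares) and equal sums of linear values (triangles). Open symbols did not pass an adjusted p of 0.05, dashed lines are the median of all genes under each scaling, and Cd14, Ly96, Cd180, Myd88 and Irak3 are filled under all 3.

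The lung is a mixture of cells, and in whole tissue fewer cells of a type and less RNA per cell cannot be told apart. Beside the marker counts on the deposited scaling, 25.7% of all 13116 genes tested were called higher and 24.3% lower. Cd180 is expressed in B cells as well as in myeloid cells, and 8 of 9 B cell markers tested fell and 0 rose (median difference -2.15), the exception being Fcer2a. Their summed linear level went from 233 to 372 in saline to 48.5 to 78.6 in LPS, with 0 of the 9 listed at 0 in any library. Of 7 dendritic cell markers tested, 4 fell and 0 rose. Cd14, Ly96 and Irak3 are known from myeloid cells, and 8 of 9 neutrophil markers rose and 0 fell (median 3.33), with summed levels of 652 to 1957 in saline and 9704 to 25310 in LPS and no marker at 0. Monocyte and recruited macrophage markers gave 8 higher and 1 lower of 10 (median 1.21). Their summed level was lower in LPS, 2630 to 2895 against 3709 to 5350 in saline, because the most abundant marker, Lyz2, was the one that fell. Of 10 resident alveolar macrophage markers, 5 fell, 1 rose (Chil3, which is on both macrophage lists) and 4 did not pass (median -0.43), with Fabp1 listed at 0 in LPS 1. Their summed level overlapped between groups, at 454.5 to 602.5 in saline and 480.7 to 540.3 in LPS. Most of that sum came from the abundant Chil3, which rose, and from Car4 and Ear2, which did not pass. It therefore says little about the less abundant markers that fell, Fabp1 (-3.26), Ear1 (-2.14), Siglecf (-1.63), Mrc1 (-1.19) and Pparg (-0.51). Of the alveolar type 2 cell markers, a lung source of LBP, 4 of 8 fell and 0 rose (median -0.87). With equal sums the B cell and neutrophil counts were 9 lower and 8 higher, and the monocyte list gave 4 higher and 2 lower. Under that scaling 790 of all 13338 genes tested were called higher and 8576 lower, so lower calls were common. The part of these cell types in the 10 genes was not tested.

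Beside the 10 genes, 86 other genes of LPS handling and Toll-like receptor signalling were listed, and 78 passed the filter. Of these, 49 rose, 6 fell and 23 did not pass, with a median difference of 0.72. On the same deposited scaling, 25.7% of all 13116 genes tested were called higher and 24.3% lower. With equal sums the counts were 29 higher and 21 lower, beside 790 higher and 8576 lower of all 13338 genes tested. These shares and counts over all genes are the base for the list counts given below, each on its own scaling. Toll-like receptors gave 3 higher, 2 lower and 5 not past the test among 10 (median 0.46), against 1 higher and 4 lower with equal sums. The bacterial RNA sensor gene Tlr13 (1.91), the lipoprotein receptor gene Tlr2 (1.75) and its partner Tlr6 (1.07) rose, while the DNA sensor gene Tlr9 (-1.19) and the flagellin receptor gene Tlr5 (-0.90) fell. The calls of Tlr2 (1.51, adjusted p = 0.0570) and Tlr6 (0.91, adjusted p = 0.0654) ended without LPS 1, which left a single LPS library for these genes.

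The list of LPS binding and clearance held 9 tested genes, of which 4 were higher, 3 lower and 2 not past the test (median 0.49), with 4 higher and 3 lower under equal sums too. The scavenger receptor gene Msr1 (3.37), the LPS-deacylating enzyme gene Aoah (2.95), the integrin gene Itgam (2.78) and Casp4 (2.13), which encodes the cytosolic LPS sensor caspase-11, rose. The lipid transfer gene Pltp (-1.69) and the scavenger receptor genes Cd36 (-1.52) and Scarb1 (-0.43) fell. Besides Tlr4, Itgb2 did not pass (0.49). Aoah read 0.87, 1.68 and 1.03 in saline and 4.23, 4.03 and 4.15 in LPS, groups far apart. Of 3 further adaptor genes, Scimp rose (0.82), and Ticam2 (0.10), whose product TRAM works with TRIF, and Pik3ap1 (-0.25) did not pass. The calls of Scarb1 and Scimp each ended in 4 of the 6 fits that left out 1 library, where Scarb1 ran from -0.52 to -0.34 and Scimp from 0.53 to 1.11.

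Genes further downstream, for kinases, ubiquitin enzymes, their partner proteins and transcription factors, mostly rose. Of 22 tested, 13 were higher, 1 lower and 8 not past the test (median 0.52), but with equal sums 3 were higher and 7 lower. The inducible IKK-related kinase gene Ikbke (3.14), Map3k8 (2.04), which encodes the kinase TPL2, the transcription factor gene Irf5 (1.70) and Tank (1.0) led them, and Peli2 (-0.57) was the gene that fell. Of 6 genes for receptor chaperones and trafficking, Rab11a (0.96) and Tmed7 (0.56) rose, and Hsp90b1 (0.21), Cnpy3 (-0.16), Cnpy4 (-0.02) and Unc93b1 (0.55) did not pass. The call of Tmed7 ended without saline 1 (0.52, limma adjusted p = 0.062). It also ended without LPS 1 (0.56) or LPS 2 (0.55), each of which left a single LPS library for this gene. Equal sums gave 0 of the 6 genes higher and 3 lower.

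Of 14 genes for negative regulators, 11 rose and 0 fell (median 1.12), against 6 higher and 3 lower with equal sums and 7 higher without LPS 1. They were led by the A20 gene Tnfaip3 (3.52), the NF-kB inhibitor gene Nfkbia (3.39) and the A20-binding genes Tnip3 (3.12) and Tnip1 (2.66). Tnfaip3, Tnip3 and Tnip1 have 2 LPS values each. Sigirr (-0.27), Cyld (-0.14) and Inpp5d (0.22) did not pass. Readout genes on the 2 signalling arms rose in 8 of 8 tested on the MyD88 arm (median 5.04), led by Cxcl2 (7.17), Cxcl1 (5.86), Il6 (5.64) and Ccl3 (5.51), and in 7 of 7 tested on the TRIF arm (median 3.19), led by Cxcl10 (3.99), Isg15 (3.97), Irf7 (3.48) and Ifit1 (3.19). The same counts came with equal sums. All 15 share the saline libraries with the 10 genes, and interferon genes are also induced by routes other than TRIF. On each list 1 further gene was below the filter: Il12b, with overlapping values of 0.43 to 1.35 in saline and 0.61 to 1.22 in LPS, and Ifnb1, with values of 0 to 0.26.

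**Figure D5:**
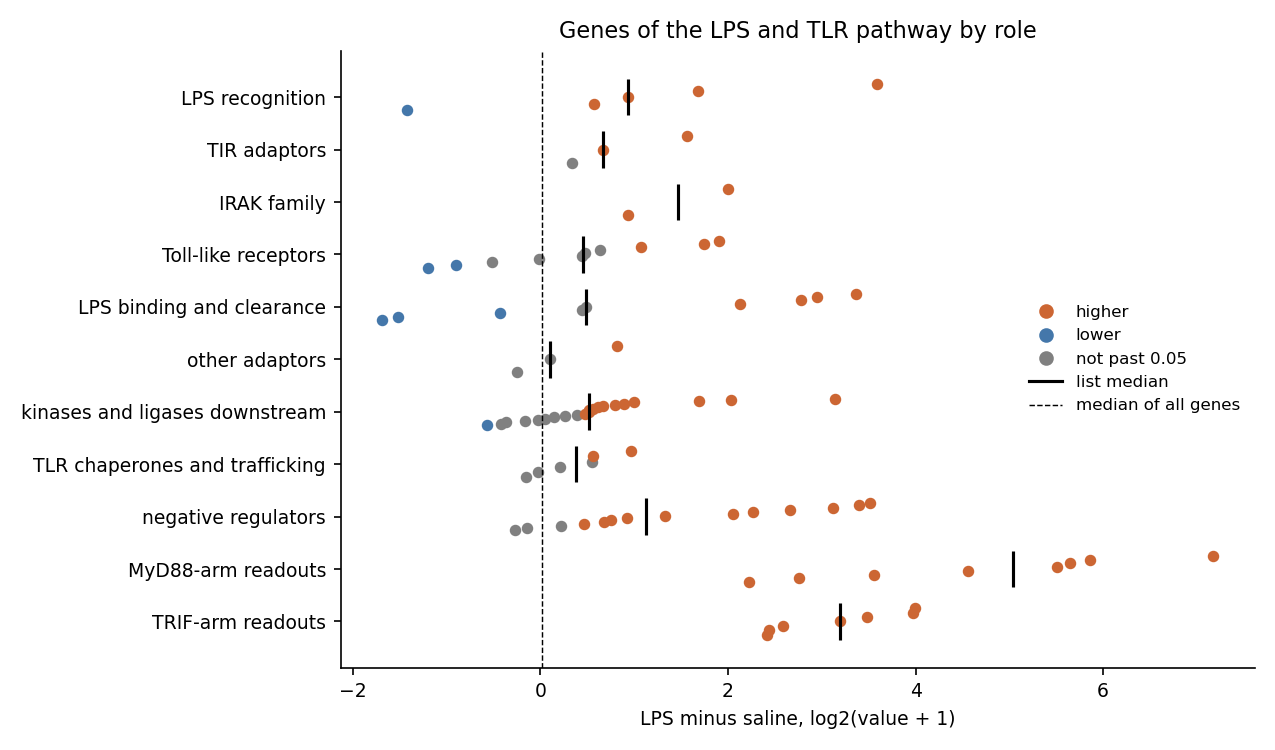
LPS minus saline on the log2(value + 1) scale for the 10 genes (top 3 rows) and the other pathway genes tested, by role, with 1 point for each gene, orange for higher, blue for lower and grey for not past an adjusted p of 0.05. Black bars are list medians, the dashed line is the median of all genes at 0.02, and every readout gene lies right of 2.

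For each of the 8 genes with 6 values, the most similar expression profiles were sought among the 10294 other tested genes with 6 values, as the smallest root mean square difference between profiles after each was centred on its own mean. Such a distance describes these 6 libraries, in which all genes share the same group difference. Nearest to Cd14 were Msr1 (0.178) and Fcgr2b (0.195), both genes of surface receptors. Nearest to Ly96 were Milr1 (0.0864) and Gm10872 (0.131), and to Irak3 Msrb1 (0.0793) and the death receptor gene Fas (0.0867). Lacc1 (0.0593) and Pstpip1 (0.0902) lay nearest to Myd88, Polr3d (0.0288) and Flot1 (0.0359) to Irak2, and Kctd9 (0.0754) and Ciapin1 (0.0909) to Lbp. Ly86 was closest to Rac2 (0.0592), the GTPase gene of blood cells, and Bcl6b (0.0821), and Cd180 to Irf4 (0.158), a transcription factor gene, and Chst4 (0.206). Among the 8 genes themselves, the closest profiles were those of Ly86 and Irak2 (0.19) and of Ly96 and Irak3 (0.191), and the farthest were Cd14 and Cd180 (2.55).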

How the data were processed

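The authors deposited 1 table per library with a gene symbol and a value on a log2 scale, which was read from the values (at least 0, not whole, with exact zeros) as log2(expression value + 1). TopHat and mm10 are named, per the submitters' processing notes. How reads were counted and scaled, and with which annotation, is not given in the sources used. The LPS 3 table lacks 4484 of 23183 genes (19.3%).

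Libraries were grouped by title. Genes with a value of 1 or more before the log in at least 3 libraries entered a limma model (version 3.58.1, R 4.3.3, variance trend) on the deposited values (13116 genes, 2821 of them with 2 LPS values), with Benjamini-Hochberg adjustment and a threshold of 0.05. The fit was tested on simulated data. The design's branch for log2 values was used. Fold changes on this scale understate changes of low genes. Ratios used a two-sided exact permutation test.

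The members, the lists, the gene pairs and the rules for naming genes (all 10 members, up to 4 called genes of each pathway list with the largest change, exceptions where 5 or fewer, and 2 nearest profiles) were chosen with earlier results of these data known. Tlr5 and the neighbouring genes were named after their values were seen. Of the marker symbols, Ly6g and Faim3 were not matched. Coordinates are from GENCODE M21 (GRCm38, the assembly of mm10). Alternatives covered scaling, filter, pseudocount, variance model, threshold, replicate block and left-out libraries.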

Additional observations from a re-analysis of the deposited data

How the results depend on the processing

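Across 16 alternatives, 145 of 157 values of the 10 genes kept their direction and their side of the threshold. Many could not have turned direction: other filters, variance models and thresholds leave a difference as it is. With groups that do not overlap, leaving out libraries keeps its sign as well. All 56 alternative values of the 7 ratios kept their direction. Of these, only the difference of log2(value + 1) could have turned it, since the groups did not overlap in any ratio. With equal sums, 4 of the 10 genes were called higher in place of 8, with Lbp at -0.20, Tirap at -0.049 and Ticam1 at -0.37; 790 of all genes were called higher and 8576 lower, and of the other pathway genes 29 higher and 21 lower. The same scaling turned Tmed7 to -0.25, Inpp5d to -0.53, Kctd9 to -0.20, Ciapin1 to -0.12, Hsp90b1 to -0.59, Tlr4 to -0.29, Itgb2 to -0.30, Ticam2 to -0.41 and Unc93b1 to -0.25, and quantile normalization turned Hsp90b1 to -0.67; the cause was not tested. Among genes that did not pass, fits without 1 library ran from -0.18 to 0.39 for Ticam2, from -0.42 to 0.019 for Pik3ap1 and from -0.15 to 0.17 for Cnpy4, which was 0.18 in saline 1 and 3 against LPS 1 and 2. With a mean of at least 5 before the log, Cd180 was not tested, so 0 of the 10 genes were called lower, and 1752 of all genes and 3 other pathway genes were. At a threshold of 0.01, 2033 of all genes were called higher and 2004 lower. With genes of 6 values only, 32 other pathway genes were called higher, since fewer genes were tested. Without any 1 library, 7 to 8 of the 10 genes were called higher and 1 lower; where this left Ticam1 and Tirap with 1 LPS value, that library was assumed to vary like the others. Replicate numbers did not pair the libraries: the deviations of same-numbered libraries from their group means correlated at -0.23, -0.08 and -0.25 across genes. With the replicate block, 8 of the 10 genes were called higher and 1 lower, and 2793 of all genes were called higher and 2624 lower. Beyond the scaling, depth sets an unknown limit, because no counts were used here.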
